A study of Mus musculus with 31 samples.

Results

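The hotspot list of PWDfX13Rm males, the F1 offspring of a PWD mother and a 13R father, was compared with the lists of both inbred parents. All hotspots of the cross on chromosomes 1 to 19 were taken, which gave 12945 of the 13721 in its list and of the 414683 in the 26 lists of the series. Hotspots of different lists were counted as 1 place when their centres lay under 400 bp apart. Meiotic DNA double-strand breaks had been mapped in testis by DMC1 SSDS, in which chromatin bound by the recombinase DMC1 is pulled down and its single-stranded DNA is sequenced. The PWD list comes from PWD/PhJ, a wild-derived inbred strain of house mouse, and held 13501 autosomal hotspots. The 13R list comes from B10.F-H2pb1/(13R)J, a congenic strain on the B10 background, and held 13850. The knockout list comes from mice whose parents were both B6;129P2-Prdm9<tm1Ymat>/J, which lack a working Prdm9, and held 29991. Crosses used beside PWDfX13Rm are written as mother (f) and father (m), and their other parents were B6 (C57Bl/6J), C3H (C3H/HeJ), CAST (CAST/EiJ) and MOL (MOLF/EiJ). Every genotype had 1 library, so no value has a replicate error and intervals in brackets are exact Clopper-Pearson 95% intervals that cover counting error only. The sources used here do not give the ages of the animals or whether animals were pooled.

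PRDM9 is a zinc-finger histone methyltransferase that binds DNA in early meiotic prophase and marks the nucleosomes beside its site, after which SPO11 cuts there. The zinc fingers differ between strains, so each allele brings its own set of hotspots, and an F1 animal carries both alleles in the same cell. DMC1 then coats the resected break ends and searches the homologous chromosome for a template. Without PRDM9, breaks form mostly at promoters and other sites that carry the same histone mark. In a hybrid, a hotspot absent from both parents can arise where a PRDM9 allele meets the chromosome of the other strain. In whole testis, how many cells break at a place and how long DMC1 stays there cannot be told apart.

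Because knockout breaks favour promoters, protein-coding promoters with a hotspot centre within 500 bp of the transcription start were compared between lists. In the cross and its parents these are a small part of all hotspots. The values therefore describe the promoters used and not the lists as a whole. Of 20085 autosomal promoters, PWDfX13Rm had a hotspot at 51 (0.254%), 13R at 42, PWD at 164 and the knockout at 9104 (45.3%). The median number of CG dinucleotides in the 250 bases before the start was 3 at the promoters used in the cross, 2.5 at those used in 13R, 16 in PWD and 17 in the knockout, against 10 over all promoters. At least 10 CG were found in 15.7% of the promoters of the cross, 4.76% of those of 13R, 64.0% of those of PWD, 81.9% of those of the knockout and 51.3% of all. Among the other PWD crosses, PWDfXB6m had a hotspot at 611 promoters with a median of 19 CG, and PWDfXCASTm at 101 with a median of 4. The counts of CG were chosen as a description after the lists had been seen. The promoters of the strongest promoter hotspot of 3 origin classes of the cross are shown. For contrast, the strongest promoter hotspot of the knockout was added from among promoters without a hotspot in the cross. Each is the 250 bases before the start, 5′ to 3′ on the strand of the gene, from RefSeq GRCm38.p6, with every CG in capitals:
Serpina11, minus strand, chr12:103989944-103990193: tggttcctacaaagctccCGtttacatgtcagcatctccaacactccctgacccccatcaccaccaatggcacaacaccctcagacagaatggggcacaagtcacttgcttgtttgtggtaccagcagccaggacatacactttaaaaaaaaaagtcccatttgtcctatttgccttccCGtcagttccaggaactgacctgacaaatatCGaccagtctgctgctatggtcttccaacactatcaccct
Tmem270, minus strand, chr5:134906734-134906983: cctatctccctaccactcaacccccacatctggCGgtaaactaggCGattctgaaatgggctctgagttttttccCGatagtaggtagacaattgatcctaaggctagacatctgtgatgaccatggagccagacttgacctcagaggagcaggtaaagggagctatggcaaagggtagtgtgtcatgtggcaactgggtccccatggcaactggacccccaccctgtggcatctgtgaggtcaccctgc
Tssk2, plus strand, chr16:17898387-17898636: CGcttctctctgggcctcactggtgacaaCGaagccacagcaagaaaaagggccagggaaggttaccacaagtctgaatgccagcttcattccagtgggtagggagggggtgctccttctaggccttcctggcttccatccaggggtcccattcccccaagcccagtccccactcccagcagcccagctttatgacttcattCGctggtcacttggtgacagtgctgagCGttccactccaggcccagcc
Snx13, plus strand, chr12:35046939-35047188: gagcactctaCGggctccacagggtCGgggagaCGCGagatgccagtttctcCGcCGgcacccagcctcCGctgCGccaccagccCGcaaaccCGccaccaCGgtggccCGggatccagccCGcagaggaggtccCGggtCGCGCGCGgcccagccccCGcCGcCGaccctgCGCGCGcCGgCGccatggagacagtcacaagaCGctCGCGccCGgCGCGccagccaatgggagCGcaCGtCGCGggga
The Serpina11 promoter, of a serine protease inhibitor family gene, holds 3 CG and carried a hotspot at a 13R place, at rank 1448 in the cross and 1978 in 13R. Tmem270, a transmembrane protein gene, also holds 3 CG, and its hotspot at a PWD place ranked 3116 in the cross and 3944 in PWD. Tssk2, a testis-specific serine kinase gene, holds 4 CG, and its hotspot in neither parent ranked 1365 in the cross and between 562 and 1533 in the other 5 PWD crosses. Snx13, a sorting nexin gene, holds 36 CG. Its promoter was at rank 6 in the knockout and at rank 13478 in PWD, and had no hotspot in 13R. It was chosen for having none in the cross.

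Most hotspots of the cross lay at 13R places. Of the 12945, 7763 (60.0%, 59.1 to 60.8) matched 13R only, 2415 (18.7%, 18.0 to 19.3) matched PWD only, 88 (0.680%) matched both, 14 (0.108%) matched a knockout site alone and 2665 (20.6%, 19.9 to 21.3) matched none of these lists. Those last hotspots are called neither-parent hotspots. Hotspots at 13R places were thus 3.21 times as many as those at PWD places, and 13R made up 76.3% (75.4 to 77.1) of the hotspots found in 1 parent only. By summed strength, the deposited score of each hotspot added up within the list, 13R places held 64.1%, PWD places 14.2% and neither-parent hotspots 20.7%, and 13R outweighed PWD 4.52 times. The median strength percentile in the cross, with 100 the strongest, was 53.5 for 13R places, 38.7 for PWD places and 48.5 for neither-parent hotspots. PWD-only hotspots were also narrower, with a median width of 1652 bp against 1926 bp for 13R-only and 1864 bp for neither-parent hotspots.

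The excess of 13R places was greatest at the top of the list. In the strongest 10% of the cross, 68.3% of hotspots were at 13R places and 9.42% at PWD places, against 49.8% and 25.0% in the weakest 10%. The neither-parent share was 20.6% in the strongest and 24.7% in the weakest 10%. Of the 100 strongest hotspots, 62 were at 13R places, 32 in neither parent, 4 at PWD places and 2 at places of both. Per chromosome, the 13R part of single-parent hotspots ran from 69.8% on chromosome 9 to 81.3% on chromosome 10, with a median of 77.1% over 19 autosomes. The neither-parent share ran from 18.4% on chromosome 14 to 25.1% on chromosome 17, followed by 23.7% on chromosome 10. The 13R part was thus above the PWD part on every autosome.

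**Figure D1:**
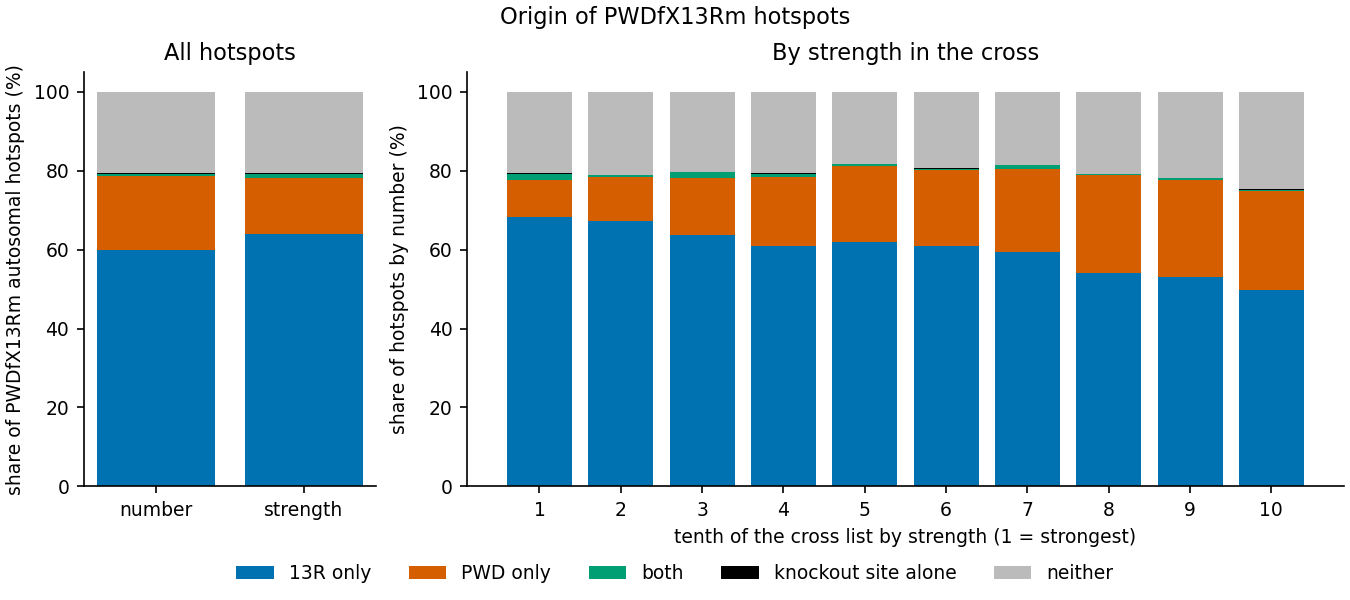
Left, the share (%) of the 12945 autosomal PWDfX13Rm hotspots in each origin class by number and by summed strength; right, the same by number in each 10% band of the cross list from the strongest (1) to the weakest (10). The 13R-only share falls from 68.3% to 49.8% along the bands while the PWD-only share goes from 9.42% to 25.0%.

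The matched places were close to each other. The median offset between a cross hotspot and the matched parental centre was 51 bp for 13R and 68 bp for PWD. Just inside the 400 bp limit, 175 hotspots lay 300 to under 400 bp from the nearest parental centre, 112 of them 13R only and 61 PWD only. Just outside, 92 lay at 400 to under 500 bp, 91 of them neither-parent hotspots. A larger group of 1909 hotspots (14.7% of the cross) had no parental centre within 10 kb.

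The hotspots that carry these classes show the 2 parental contributions one by one. Among 13R-only hotspots, the strongest lay inside Adarb2, which encodes an RNA-binding protein of the adenosine deaminase family (chr13:8743745-8747392). It ranked 2 in the cross and 11 in MOLfX13Rm but 3551 in 13R itself, 6175 in 13RfXB6m, 6281 in B6fX13Rm and 8734 in C3HfX13Rm. Only the crosses of 13R with PWD and MOL had it near the top. The next 2 were strong in every 13R list. The hotspot inside Stau2, a double-stranded RNA-binding protein gene (chr1:16302941-16306890), ranked 3 in the cross, 3 in 13R and 10 to 87 in the other 13R crosses. The hotspot nearest to Chst10, a carbohydrate sulfotransferase gene 12499 bp away (chr1:38849435-38853300), ranked 4 in the cross, 14 in 13R and 6 to 30 in the other 13R crosses.

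The 3 strongest PWD-only hotspots ranked far lower in PWD than in the cross. Of all 140 hotspots shared with PWD in the strongest 10% of the cross, however, 54 came from the strongest 10% of PWD. The strongest PWD-only hotspot lay inside Ica1, a gene for an islet cell autoantigen (chr6:8730747-8734108), and ranked 37 in the cross against 3230 in PWD. In the other PWD crosses Ica1 ranked 32 in PWDfXC3Hm, 94 in PWDfXB6m, 146 in B6fXPWDm, 1423 in PWDfXCASTm and 4522 in PWDfXMOLm. The next lay 18141 bp from Sla2, a Src-like adaptor gene (chr2:156903727-156907054), and ranked 42 in the cross, 10230 in PWD and 79 to 812 in the other PWD crosses. The third lay inside Cdc37l1, a gene related to an Hsp90 co-chaperone (chr19:29019144-29023267), and ranked 77 in the cross and 7490 in PWD. It ranked 8, 23 and 73 in PWDfXB6m, B6fXPWDm and PWDfXC3Hm, but 1698 in PWDfXMOLm and 6782 in PWDfXCASTm. All 3 places were thus higher in the cross with 13R and in the crosses with B6 and C3H than in the PWD inbred list. In contrast, the strongest autosomal PWD hotspot, inside the transcription factor gene Klf5 (chr14:99306091-99310216), ranked 1341 in the cross and 21 to 220 in the other PWD crosses.

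The 88 hotspots at places of both parents were few but strong, with a median percentile of 69.1. The strongest, inside Zfpm2, a GATA cofactor gene (chr15:41077220-41080377), ranked 82 in the cross, 32 in 13R and 4976 in PWD. The next lay 75 bp from an end of Ndufb3, which encodes a subunit of respiratory complex I (chr1:58594513-58597564), and ranked 98, 13 and 7210 in the cross, 13R and PWD. At both, 13R had by far the higher rank. The third, inside the tRNA methyltransferase gene Trdmt1 (chr2:13514841-13518392), ranked 174, 195 and 317. PWD and 13R themselves shared 92 hotspots, 0.681% of PWD and 0.664% of 13R.

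To see what became of each parent's hotspots, the parental lists were followed into the cross. Of the 13R hotspots, 7851 (56.7%, 55.9 to 57.5) were found in PWDfX13Rm, and of the PWD hotspots 2503 (18.5%, 17.9 to 19.2). Those found held 78.1% of the summed strength of 13R and 34.8% of that of PWD. The strongest 10% of 13R hotspots were recovered almost whole, at 99.4%, and the strongest 10% of PWD hotspots at 67.0%. The next 10% bands gave 99.2%, 97.9%, 89.8% and 71.8% for 13R and 37.7%, 23.0%, 16.2% and 10.7% for PWD, and the weakest band 6.57% and 2.74%. Of the 100 strongest, 96 13R and 92 PWD hotspots were found, so the gap opened below the very top of the PWD list.

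PWD recovery was lower in PWDfX13Rm than in every other cross with a PWD parent. It was 34.4% in B6fXPWDm, 37.8% in PWDfXCASTm, 43.8% in PWDfXC3Hm, 44.8% in PWDfXMOLm and 46.2% in PWDfXB6m. The list of B6fXPWDm, with 12918 autosomal hotspots, was about as long as that of the cross. In the strongest 10% of PWD, the other crosses recovered from 84.9% (PWDfXCASTm) to 95.6% (PWDfXB6m). For 13R hotspots the cross stood at the low end of its group but close to its neighbours, with 57.0% in MOLfX13Rm, 58.3% in B6fX13Rm, 70.8% in 13RfXB6m and 76.6% in C3HfX13Rm. These crosses share the parental list they are matched to, and their own lists run from 9748 to 18270 autosomal hotspots, whose part in the recovery was not tested. No test between single libraries was possible.

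**Figure D2:**
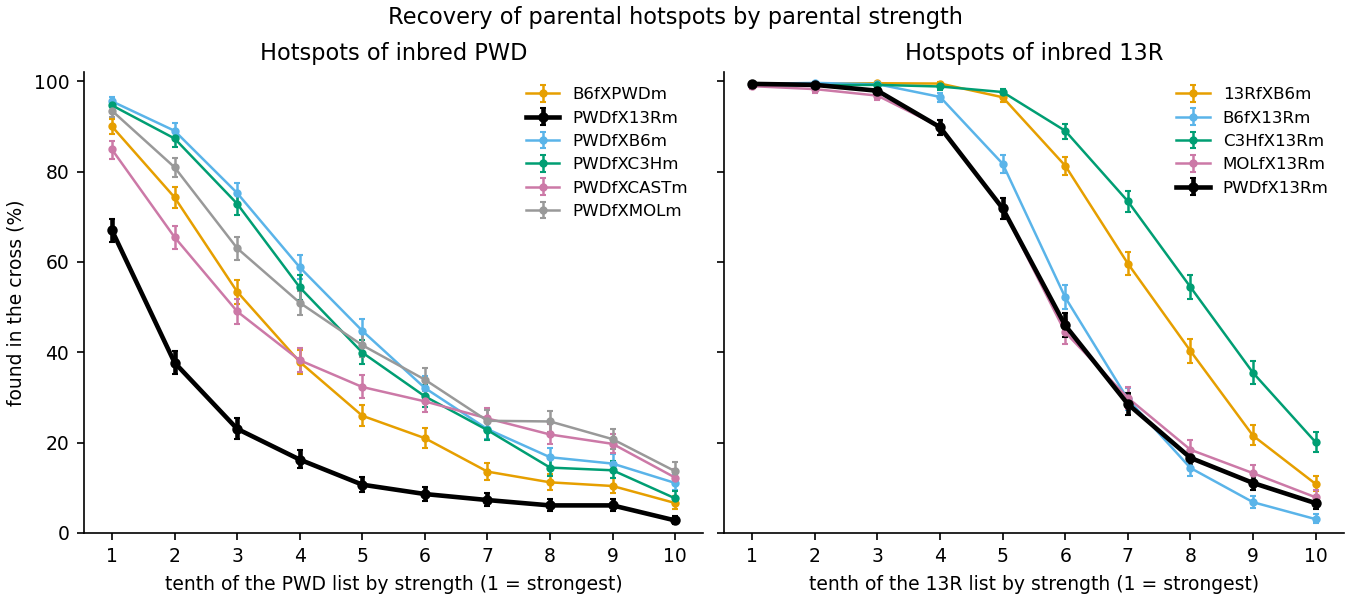
Share (%) of PWD hotspots (left) and 13R hotspots (right) found in each F1 cross, by 10% band of the parental list from the strongest (1) to the weakest (10), with exact 95% intervals; PWDfX13Rm is in black. The black PWD line starts at 67.0% and lies below the other 5 crosses in every band, while the black 13R line starts at 99.4% and runs beside MOLfX13Rm.

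Among the recovered hotspots, strength within the cross kept the order of 13R but hardly that of PWD. Over the 7851 shared hotspots, Spearman's rho between strength in 13R and in the cross was 0.770, and over the 2503 shared with PWD it was 0.0665. These are descriptions across hotspots, which share a library and its depth. They leave out parental hotspots that the cross did not list. Recovery itself fell with PWD strength, from 67.0% in the strongest band to 2.74% in the weakest. PWD strength thus did go with presence in the cross. The other 13R crosses ranged from 0.755 (MOLfX13Rm) to 0.924 (13RfXB6m), and the other PWD crosses from 0.0862 (PWDfXCASTm) to 0.381 (PWDfXB6m). Recovered hotspots from the strongest 10% of 13R had a median percentile of 89.8 in the cross, and 674 of 1377 were in its strongest 10%. Those from the strongest 10% of PWD had a median percentile of 45.7, and 54 of 905 were in the strongest 10% of the cross. In the 5 weakest bands of PWD the few recovered hotspots had medians between 40.5 and 50.1, around that of the strongest band.

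Most of the strongest PWD hotspots missing from this cross were present in other PWD crosses. Of the 446 hotspots from the strongest 10% of PWD that were not found in PWDfX13Rm, 433 (97.1%) were found in at least 1 of the other 5 PWD crosses and 221 (49.6%) in all 5. The single crosses held from 64.8% of them (PWDfXCASTm) to 89.7% (PWDfXB6m). The 905 that were found in PWDfX13Rm were present in 94.8% to 98.8% of cases in the other crosses, and 90.8% were in all 5. The strongest PWD hotspot missing from the cross lay inside Prickle1, a planar cell polarity gene (chr15:93572310-93576517). It ranked 15 in PWD, 1553 to 3582 in the crosses with B6, C3H and MOL and 12319 in PWDfXCASTm. The next lay inside Mfsd14a, a membrane transporter family gene (chr3:116649061-116653060), and ranked 20 in PWD and 1808 to 4986 in the other 5 crosses. Both ranked lower in every other PWD cross than in PWD.

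The third lay inside Prdm9 itself (chr17:15562242-15564529), with rank 31 in PWD. It had no counterpart in PWDfX13Rm or 13R, and of the other PWD crosses only B6fXPWDm listed it, at rank 465. It was also listed in C3H (132), B6fXC3Hm (135), C3HfXCASTm (321) and CAST (2353). The presence of this place across lists thus did not follow the PWD parent. The 3 strongest 13R hotspots missing from the cross all lay inside Sycp3, a gene for a component of the chromosome axis that aligns homologues. They ranked 1 (chr10:88471976-88473781), 5 (chr10:88460922-88464173) and 6 (chr10:88464915-88468114) in 13R. PWD listed the same places at ranks 4057, 3877 and 5927, and CAST at 4283, 7124 and 6973, so both parents had them and the cross had none. Of the other 13R crosses, MOLfX13Rm alone listed any, the hotspots ranked 5 and 6 in 13R, at ranks 7785 and 10558. MOL listed all 3, at ranks 419, 4306 and 2161, and B6 at ranks 10415, 13800 and 15579. Each place was also listed in 5 crosses without a PWD or 13R parent. The presence of these places across lists thus did not follow the 13R parent either.

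Neither-parent hotspots were traced through the other lists. Of the 2665, 1142 (42.9%) were found in another PWD cross but in no other 13R cross, 814 (30.5%) in another 13R cross but in no other PWD cross, 236 (8.86%) in crosses of both kinds, 11 only in lists without either parent and 462 (17.3%, 15.9 to 18.8) in no other list. The PWD side was spread over its crosses. B6fXPWDm held 49.6% of neither-parent hotspots, PWDfXB6m 49.4%, PWDfXC3Hm 46.1%, PWDfXCASTm 34.9% and PWDfXMOLm 30.0%, and at least 1 of them held 51.7% (49.8 to 53.6). The 13R side rested on 1 cross. MOLfX13Rm held 35.3% (33.5 to 37.2), whereas C3HfX13Rm held 8.29%, B6fX13Rm 3.15% and 13RfXB6m 3.08%. At least 1 of the 4 held 39.4%, which fell to 10.6% (9.44 to 11.8) without MOLfX13Rm.

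Single-parent hotspots gave the background for these shares. Of 13R-only hotspots, 99.5% were found in another 13R cross and 2.22% in another PWD cross. Of PWD-only hotspots, 99.4% were found in another PWD cross and 15.3% in another 13R cross, which became 0.870% without MOLfX13Rm. PWD itself shared 13.0% of its hotspots with MOL and 11.9% with CAST, against 1.14% with B6 and 0.800% with C3H. PWD-only hotspots were found in MOL at 21.3% and in CAST at 20.9%, and neither-parent hotspots were found there at 8.18% and 9.87%. B6 and C3H held 0.901% and 0.675% of neither-parent hotspots.

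**Figure D3:**
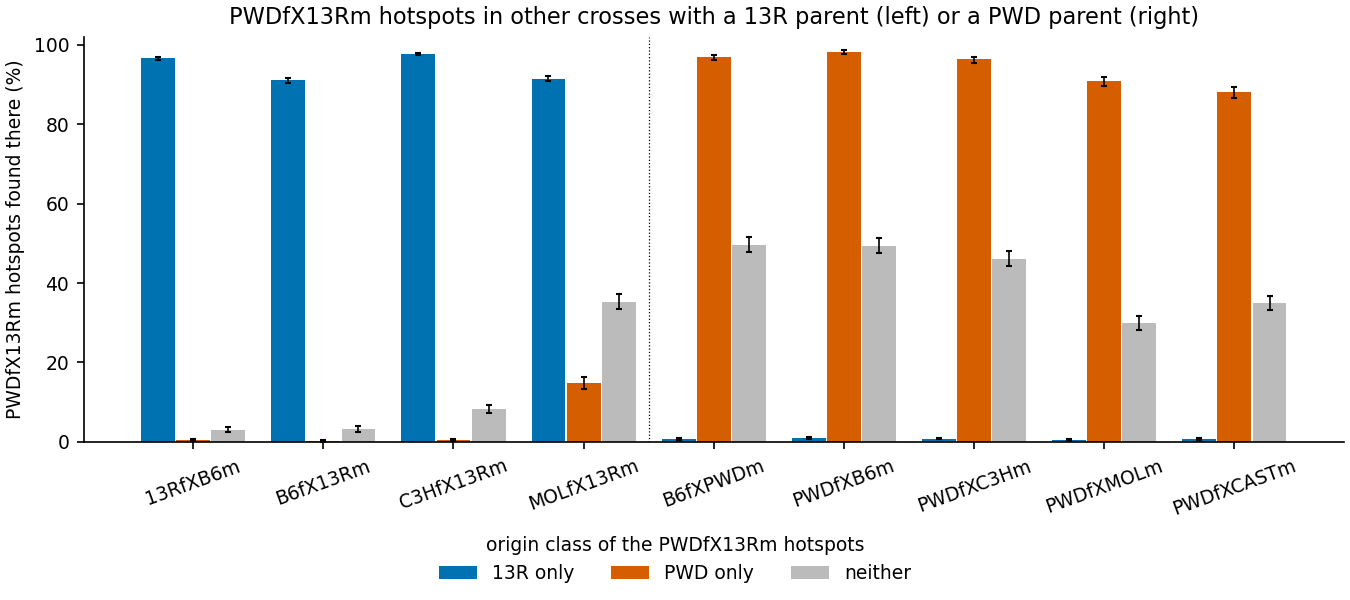
Share (%) of PWDfX13Rm autosomal hotspots of 3 origin classes found in each of the other 4 crosses with a 13R parent and 5 with a PWD parent, with exact 95% intervals. Neither-parent hotspots reach 30.0% to 49.6% in the PWD crosses and 35.3% in MOLfX13Rm, but 3.08% to 8.29% in the 3 crosses of 13R with B6 or C3H.

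The parts of the neither-parent class differed in strength. Those shared with another 13R cross alone had a median percentile of 56.8 in the cross and supplied 15 of its 100 strongest hotspots. Those shared with another PWD cross alone had 44.5 and supplied 9, those of both kinds had 60.5 and supplied 4, and those in no other list had 39.2 and supplied 4. The strongest autosomal hotspot of the cross was of this class. It lay inside Gnai1, which encodes an inhibitory G protein alpha subunit (chr5:18317827-18321262), and appeared in 1 other list, MOLfX13Rm, at rank 46. The hotspot at rank 7, inside the Wnt pathway transcription factor gene Tcf7l2 (chr19:55862142-55865177), was likewise listed only in MOLfX13Rm, at rank 37. The one at rank 6 lay inside Amph, which encodes amphiphysin (chr13:19117707-19121438). It ranked 41 in PWDfXB6m, 42 in B6fXPWDm, 138 in PWDfXC3Hm and 1375 in PWDfXCASTm, was listed at 5916 to 8112 in the 4 crosses of MOL with B6, C3H and 13R, and was in no inbred list. Of these 3 places, Gnai1 and Tcf7l2 were thus listed only in the crosses of 13R with PWD and MOL, and Amph was strong only in crosses with PWD.

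Few hotspots of the cross lay at knockout sites, and how many such matches arise by chance was not estimated. For scale, 13R hotspots were found in the other inbred lists at 0.599% (CAST) to 1.15% (B6). Those lists held 13501 (PWD) to 18130 (B6) autosomal hotspots against 29991 in the knockout, so the scale is rough. A single match thus need not mark a break site of the knockout kind. Of the cross hotspots, 82 of 12945 lay at one (0.633%, 0.504 to 0.786), holding 0.709% of summed strength with a median percentile of 51.1. The share was 0.700% in 13R and 1.76% in PWD. It was 0.708% to 0.763% in the other 13R crosses, 0.744% in PWDfXCASTm and 2.13% to 5.93% in the 4 remaining PWD crosses. This cross had been singled out as the lowest, and it was lowest of the 19 crosses in 2 of 7 ways of matching, all hotspots at 400 bp and the strongest 50% of each list, and tied with MOLfX13Rm at 0 in the strongest 5000. At 200 bp its share was 0.371% and 4 crosses were lower, and with any overlap it was 5.55% and 6 were lower. Its interval overlapped those of all other 13R crosses and of every cross with a CAST parent, PWDfXCASTm among them. It lay below those of the 4 high PWD crosses.

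Mean shares were compared between crosses with and without a 13R parent, leaving out PWDfX13Rm because its share had been used to choose it. The mean was 0.741% ± 0.0244 (SD, n = 4) in the other crosses with a 13R parent and 1.63% ± 1.36 (SD, n = 14) in crosses without one, which puts the 13R crosses -0.894 percentage points from the rest (p = 0.00458, exact permutation of the cross labels, two-sided). Without PWDfXB6m, the highest of the 14, the distance was -0.564 (exact permutation p = 0.00588). By summed strength it was -0.295 (exact permutation p = 0.0529), with any overlap -1.20 (p = 0.0667, same test) and in the strongest 5000 -0.0586 (p = 0.0523, same test), which miss the threshold of 0.05. All 4 lay below the median of the others, 1.13%, but PWDfXCASTm at 0.744% and C3HfXCASTm at 0.752% lay within their range. The p-value treats crosses with a common parent as independent, which they are not. The shares of the other crosses had also been ranked when PWDfX13Rm was chosen. The p-values are therefore descriptions and not independent support.

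**Figure D4:**
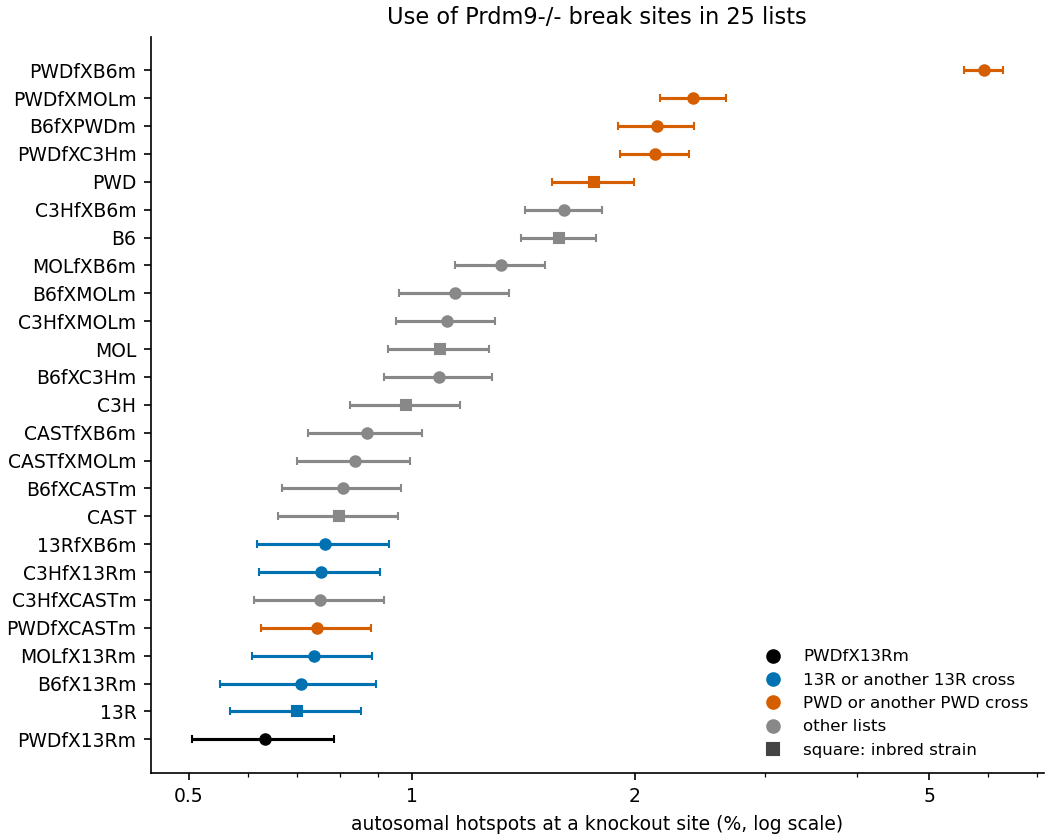
Share (%) of autosomal hotspots at a knockout site in each of 25 lists on a log axis, with exact 95% intervals; circles are crosses and squares inbred strains. PWDfX13Rm (black) stands at 0.633% beside 13R at 0.700%, and PWDfXB6m is highest at 5.93%.

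Knockout sites were followed into the cross as well. Of all 29991 knockout hotspots, 82 (0.273%) were found in the cross, 97 in 13R and 238 in PWD. Of the 1000 strongest, 2 (0.2%) were found in the cross and 2 in 13R, against 94 in PWD, 106 in B6fXPWDm, 145 in PWDfXC3Hm, 152 in PWDfXMOLm, 460 in PWDfXB6m and 4 in PWDfXCASTm. Of the 238 PWD hotspots at knockout sites, 14 (5.88%, 3.25 to 9.67) were found in the cross, against 18.8% (18.1 to 19.4) of other PWD hotspots. In PWDfXCASTm the same pair was 15.5% and 38.2%, and in PWDfXB6m 69.3% and 45.7%, so the order turned between crosses. These PWD hotspots were weak in PWD, with a median percentile of 22.0 against 50.5. For 13R the shares in the cross were 55.7% of 97 and 56.7%, which did not differ beyond counting error.

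Of the 82 hotspots at knockout sites, 55 were at 13R places, 13 at PWD places and 14 at no parental place. The 5 strongest ranked from 7228 to 29279 of 29991 at their knockout place. They lay inside Dnajc2, a chaperone gene (rank 49 in the cross, 23458 in the knockout), inside CN725425 (83 and 29279), 66066 bp from the glutamate transporter gene Slc1a1 (120 and 22204), 795946 bp from Tmem182 (395 and 27354) and 8870 bp from Cox8b, a cytochrome c oxidase subunit gene (399 and 7228). Slc1a1 (chr19:28767303-28770834) was also the strongest at a knockout site and in neither parent; it ranked 24 in MOLfX13Rm, 2579 in C3H and 5445 to 11167 in 6 crosses with a C3H parent. The next of that kind, inside the DNA repair gene Ercc8 (chr13:108194804-108197217), ranked 856 in the cross and 711 to 1949 in the other 5 PWD crosses. The third, 1157 bp from Lin7c (chr2:109900783-109903404), ranked 1162 in the cross and 543 to 1712 in 4 of the PWD crosses. Their ranks in the knockout list ran from 22204 to 28938. Hotspots at knockout sites were near a gene end, meaning within 1000 bp of either end of a coding gene, in 15.9% of cases (13 of 82, 8.72 to 25.6), against 2.94% of all cross hotspots and 33.0% of knockout hotspots.

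A son's X chromosome comes from his mother, so the X of this cross is a PWD chromosome and has no 13R copy. It nevertheless held more 13R places than PWD places. Of 771 X hotspots, 434 (56.3%) were at 13R places, 218 (28.3%) at PWD places, 9 at both and 110 (14.3%, 11.9 to 16.9) at neither. The 13R part of single-parent hotspots was 66.6% (62.8 to 70.2) on X, below the 76.3% of the autosomes, and by strength 81.4% against 81.9%. The 20 strongest X hotspots comprised 17 at 13R places, 1 at a PWD place and 2 in neither parent. X held 5.62% of hotspots but 10.4% of summed strength and 59 of the 100 strongest, and the strongest autosomal hotspot ranked 38 in the whole list. Both parents had more on X, with 11.9% of summed strength and 82 of the 100 strongest in 13R, and 13.9% and 81 in PWD.

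Recovery by parent differed between X and autosomes. Of the strongest 10% of PWD X hotspots, 95 of 99 (96.0%, 90.0 to 98.9) were found in the cross, above the 67.0% on autosomes. In the other crosses with a PWD mother all or all but 1 of the 99 were found. In B6fXPWDm, where X comes from B6, 81 of 99 (81.8%, 72.8 to 88.9) were found, against 90.0% on autosomes. For 13R the order was the other way round in this cross, with 75 of 88 (85.2%, 76.1 to 91.9) on X and 99.4% on autosomes. MOLfX13Rm, with a MOL X, gave 87.5%, and the crosses whose X came from 13R, B6 or C3H gave 96.6% to 98.9%. In both directions the intervals for X and autosomes in PWDfX13Rm did not overlap. The strongest 10% were, however, cut separately on X and on autosomes and not matched for strength. In PWD, 81 of the 100 strongest hotspots lay on X. Of the 100 strongest PWD hotspots of each kind, the cross held 96 on X and 92 on autosomes. For 13R it held 87 on X and 96 on autosomes. How far strength accounts for the differences was not tested.

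**Figure D5:**
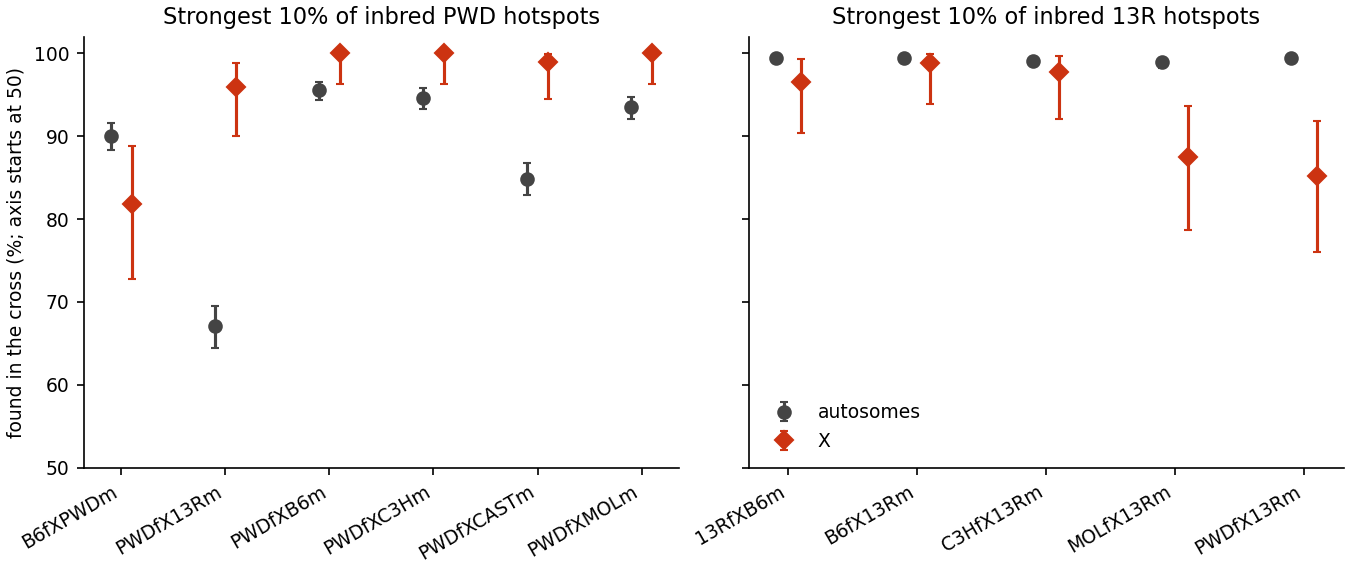
Share (%) of the strongest 10% of PWD hotspots (left) and 13R hotspots (right) found in each F1 cross on autosomes (circles) and on X (diamonds), with exact 95% intervals; the axis starts at 50. In PWDfX13Rm PWD hotspots reach 96.0% on X and 67.0% on autosomes, and 13R hotspots 85.2% on X and 99.4% on autosomes. The strongest 10% were cut separately on X and on autosomes and not matched for strength.

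The strongest X hotspot of the cross lay 6318 bp from C330007P06Rik (chrX:36818241-36823444). Counted on X alone, it ranked 1 in the cross, 2 in 13R and 3 to 13 in the other 13R crosses, and no list with a PWD parent other than the cross held it. The second lay inside Cldn2, a tight junction gene (chrX:139799985-139804900), and was in neither parent. Of the other PWD and 13R crosses, MOLfX13Rm alone held it, as its strongest X hotspot. The third, 9256 bp from Ripply1, a gene of somite patterning (chrX:139768370-139772479), ranked 1 in 13R and in the 3 crosses of 13R with B6 or C3H, and 4 in MOLfX13Rm. These last 2 were chosen after their values were seen. On Y the cross listed 5 hotspots, 2 at 13R and 3 at PWD places.

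PWD-only hotspots lay inside genes somewhat more often than 13R-only and neither-parent hotspots. The 88 hotspots at places of both parents stood at 59.1% (48.1 to 69.5). Inside protein-coding genes lay 53.3% (52.2 to 54.4) of 13R-only, 57.1% (55.1 to 59.1) of PWD-only and 51.4% (49.5 to 53.3) of neither-parent hotspots. PWD hotspots found in the cross, which are largely the same places as its PWD-only hotspots, were more often inside genes than those not found. The shares were 57.2% (55.2 to 59.2) and 50.5% (49.6 to 51.5). Near a gene end lay 2.85%, 3.31% and 2.81% of the 3 classes, with overlapping intervals. In the distal 10 Mb of the autosomes lay 8.44%, 7.12% and 8.93%. The whole lists stood at 3.81% near a gene end in PWD and 2.69% in 13R.

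Genes of meiotic recombination were looked up as a group, with 49 of 49 listed genes matched. A cross hotspot lay inside 13 of them (26.5%, 14.9 to 41.1), against 20.9% of all protein-coding genes on the autosomes and X. PWD had one inside 22 (44.9%, background 21.5%), 13R inside 16 (32.7%, background 21.1%) and the knockout inside 43 (87.8%, background 55.2%). The listed genes are longer, with a median of 37765 bp against 17329 bp, and longer genes hold more hotspots. The strongest in the cross lay inside Hormad2, which encodes a chromosome axis protein and held 4 cross hotspots, 2 PWD and 1 13R, with best ranks of 524, 328 and 722 over autosomes and X. Next came Atm, the kinase that limits break number (586 in the cross, 185 in 13R, none in PWD), Gm960, the Top6bl gene of the SPO11 complex (1034, 2061 in 13R, none in PWD), and Hsf2bp, which encodes a BRCA2 partner (1319 in the cross, 1925 in 13R, 1892 in PWD). Sycp3 held 4 hotspots in each parent and 0 in the cross. Dmc1 held 2 in PWD and 0 in 13R and in the cross.

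Prdm9 and the genes at well-known mouse recombination hotspots were looked up. No cross hotspot lay within 10 kb of Prdm9, Psmb9, H2-Eb1 or Hlx. 13R listed 1 near Psmb9 (rank 13837) and 1 near H2-Eb1 (rank 10026), and PWD listed 1 near Hlx (rank 11524), all low in their lists. Esrrg, an orphan nuclear receptor gene, held 3 cross hotspots, at ranks 5308, 6586 and 10564, all at 13R places (ranks 3743, 6308 and 6962 in 13R). The 4 PWD hotspots near Esrrg, at ranks 5774 to 11376, were not found in the cross.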

How the data were processed

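The files give DMC1 SSDS hotspots from testis, 1 library per genotype, as positions with a deposited strength score. The submitters' processing notes name the build mm10, CASAVA 1.8 and MACS2 2.0.10. The deposited score has 3 decimals and a few values below 0. The sources used here do not give its normalization, the authors' threshold or whether animals were pooled. Scores were compared only between hotspots of the same list, as ranks, percentiles or shares of the sum. The read depth is unknown, so a longer list need not mean more breaks. The 5 input samples were not used. The series text withdraws a sample that had been wrongly labelled as a CAST by 13R cross and is labelled CAST here, so CAST values hold only if that label does.

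Starts were read as 0-based and printed 1-based. The main match was a distance under 400 bp between centres. Exact Clopper-Pearson intervals and the two-sided exact permutation test used Python 3.11.15 with numpy 2.4.6, pandas 2.3.3 and SciPy 1.17.1, and figures matplotlib 3.10.9. The matching code was checked on simulated lists, made by shifting hotspots of the cross by less than the 400 bp limit. There 12945 of 12945 hotspots received the right class. This checks the code only and cannot show how often unrelated hotspots match by chance. Genes and promoters came from RefSeq tables of GRCm38.p6, the primary assembly of mm10. The hotspots named were the 3 strongest autosomal ones of each origin class, the 3 strongest of each parent not found, the 5 strongest at knockout sites, the strongest on X, those within 10 kb of 5 genes and the 4 strongest in the meiotic list. The gene of a hotspot is the protein-coding gene that holds its centre, otherwise the one with the nearest end. The part studied, the lists and the tests were chosen with earlier results of these data known. Alternatives covered the match distance, overlap rules, stricter thresholds and summed strength.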

Additional observations from a re-analysis of the deposited data

Results flagged for a closer look

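Within the 6 crosses with a PWD parent, the share of hotspots at knockout sites in PWDfXB6m, 5.93%, lay far from the others. The next was PWDfXMOLm at 2.40%, and PWDfX13Rm was lowest at 0.633%. The gap was 0.666 of the range of the group, above the critical value of 0.625 for 6 samples, in 1 of 16 checks of the highest and lowest values of 8 groups. Chance passes this value in about 1 in 20 groups of independent samples, and 8 groups were checked. The 6 crosses share the PWD parent, so that rate holds only roughly. Their shares had also been ranked when PWDfX13Rm was chosen, so the flag is a description. PWDfX13Rm itself was not set apart in this way in any of the measures, with 0.575 of the range for PWD recovery.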

How the results depend on the processing

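The 13R part of single-parent hotspots (76.3%) was 82.2% with a reciprocal overlap of 50%, 86.7% in the strongest 5000 hotspots of each list, 84.0% in the strongest 50% and 81.9% by summed strength; on X it was 76.6% with reciprocal overlap and 73.8% in the strongest 50%. The neither-parent share was 26.4% at 200 bp, 18.9% at 1000 bp, 17.4% with any overlap, 28.2% with reciprocal overlap, 30.1% in the strongest 5000 and 26.3% in the strongest 50%. In the same order, PWD recovery was 16.5%, 19.6%, 20.8%, 13.1%, 9.72% and 11.7%, and 13R recovery 53.0%, 57.6%, 57.8%, 55.1%, 60.6% and 57.9%. The knockout-site share was 0.371%, 1.90%, 5.55%, 1.16%, 0 of 5000 (which allows up to 0.0738%) and 0.155%. PWD recovery was the lowest of the PWD crosses in all 7 ways of matching, and the knockout-site share the lowest of the crosses in 2 of 7. Neither-parent hotspots found in another PWD cross were 45.3% at 200 bp, 54.4% at 1000 bp, 56.0% with any overlap, 57.6% with reciprocal overlap and 46.6% in the strongest 5000. Those found in another 13R cross were 35.3% with reciprocal overlap, 42.7% in the strongest 50% and 10.6% without MOLfX13Rm. Within 2500 bp of a gene end lay 8.13% of cross hotspots, and in the strongest 5000 a hotspot lay inside 7 meiotic genes. The cause of these shifts was not tested, apart from the smaller lists and wider windows themselves. With PWDfX13Rm left out, the distance in knockout-site share between crosses with and without a 13R parent ran from -1.20 to -0.0586 percentage points over 13 alternatives. It passed the threshold in 10 and missed it in 3 (exact permutation p = 0.000654 to 0.0667 over the 13): summed strength, any overlap and the strongest 5000. It was -0.564 without PWDfXB6m and -0.494 without both crosses of B6 and PWD, against -0.894. As fixed in the plan, with PWDfX13Rm included, it was -0.916, and -0.927 to -0.894 when each 13R cross was left out in turn. These are given as values only. The p-values without PWDfX13Rm are descriptions too, since the shares of all crosses had been ranked beforehand. The X alternatives, those without PWDfXB6m or PWDfX13Rm throughout, and those for gene ends, meiotic genes and MOLfX13Rm were chosen after seeing the data. The strongest 5000 could not be taken on X. No paired analysis was possible because each genotype had 1 library and the labels carry no replicate numbers.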
